A study of Drosophila melanogaster with 8 samples.

Results

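Distal sites of RNA polymerase II (RNAPII) in introns and between genes were examined on the chromosome arms of Drosophila S2 cells, a line of embryonic origin with features of hemocytes. An entry of the deposited site table was taken when it lay on arm 2L, 2R, 3L, 3R or X, was annotated as intron or intergenic, lay over 1000 bp from an annotated transcription start site (TSS), and carried no transposon or satellite annotation. These criteria kept 308 of 14357 entries, 178 in introns and 130 intergenic. Of these, 156 came from the H1 knockdown peak list and 152 from the LacZ peak list, and 7 that touched a simple repeat or low complexity stretch were kept. Entries that overlapped by at least 1 bp were merged, which left 213 loci of 7911 in the table, 124 intronic and 89 intergenic. Each locus was described by its entry of highest mean concentration.

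RNAPII was profiled by chromatin immunoprecipitation and sequencing in S2 cells with knockdown of the linker histone H1, and in S2 cells whose treatment was LacZ, a bacterial gene without a fly counterpart that serves as control. Each condition had 2 RNAPII precipitation libraries and 2 input libraries of 10% of the chromatin, 8 libraries in all. Nothing in the labels ties replicate libraries to separate cultures, and the spread behind the authors' p-values may be technical. The files gave 1 mean log2 concentration per condition and site. Depth, values per library and the spread between replicates were therefore not known here, and whether single libraries of the conditions overlapped could not be seen. Every log2 fold is from the authors' deposited table and is the log2 concentration of H1 knockdown minus that of LacZ, with positions in dm3. The labels do not say how libraries were scaled, and the position of 0 on this scale rests on that choice. A gene named beside an intergenic site is the nearest one by TSS, with no evidence here that the site acts on it.

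RNAPII starts at promoters, where in flies it often pauses just downstream of the start site, and then moves through the gene body. Peaks far from an annotated start can mark an unannotated or alternative start, an enhancer that is itself transcribed, or polymerase slowed within a gene. H1 binds the DNA that enters and leaves the nucleosome and is abundant in compact chromatin, such as that around the centromeres. More polymerase per cell and polymerase on the site in more cells cannot be told apart in such chromatin pools.

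Entries at marker genes of cell types were counted. Of 15 hemocyte lineage genes, 10 had at least 1 entry in the table, among them srp, the GATA factor of blood cells, and Hml, which encodes hemolectin, and 9 of these had a promoter entry. NimC1, NimC4, Sr-CI, lz and gcm had none. Entries were found for 2 of 7 ovarian and germline markers (aub and bam), 1 of 5 neuronal markers (elav) and 2 of 5 muscle markers (Mef2 and Mhc). Lists not tied to a lineage had entries for 19 of 21 cytoskeleton and adhesion genes, 23 of 26 chromatin genes and 14 of 16 ecdysone response genes. The numbers were 17 of 26 for signalling and 13 of 39 for developmental transcription factors. These counts thus do not by themselves identify the cells.

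RNAPII at the distal sites was on balance slightly higher after H1 knockdown, by about as much as over the whole table, but with a wider spread in both directions. In the authors' deposited table the 308 entries had a median log2 fold of 0.09 (quartiles −0.10 and 0.23), against 0.08 (quartiles −0.03 and 0.19) over all 14357 entries. The distal entries also had a lower log2 mean concentration, with a median of 7.79 against 8.31. Whether the wider spread goes with the lower concentration was not tested. The fold was above 0 at 191 entries (62.0%), against 68.2% of all entries. Taken as 213 loci, the folds of the authors' deposited table ran from −0.48 to 1.42 around a median of 0.08, with 124 above 0 (58.2%). Intron and intergenic entries had the same median, 0.09 in the authors' deposited table.

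The authors called a site changed when its unadjusted p was under 0.05. By that rule 18 of the 308 entries were called higher after knockdown in the authors' deposited table (5.84%), against 3.99% of all entries. Merged, they made 13 of 213 loci (6.10%), against 5.09% of all loci. Calls of lower RNAPII numbered 2 entries in the authors' deposited table, each its own locus, against 0.0557% of all entries and 0.101% of all loci. The whole authors' deposited table had 8 such entries. No entry passed the authors' false discovery rate (FDR) of 0.05, neither among these sites nor in the table (0%), and the FDR of each distal entry was 1. The calls named here are thus calls at an unadjusted p only, and the share called higher was near that of the table.

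Other classes of arm site differed in level and in direction. Distal intron and intergenic entries with a repeat, 1309 in number, had a median log2 fold of −0.05 in the authors' deposited table, and 24.4% of them were above 0. Arm promoters, 7253 entries, had a median of 0.15 in the authors' deposited table, with 93.5% above 0. The 39 non-repeat intron and intergenic entries within 1000 bp of a TSS had a median of 0.10, with 84.6% above 0. By the medians in the authors' deposited table, the distal non-repeat sites thus stood between distal repeats and promoters, with no test of these differences, since sites of the same libraries are not replicates.

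**Figure D1:**
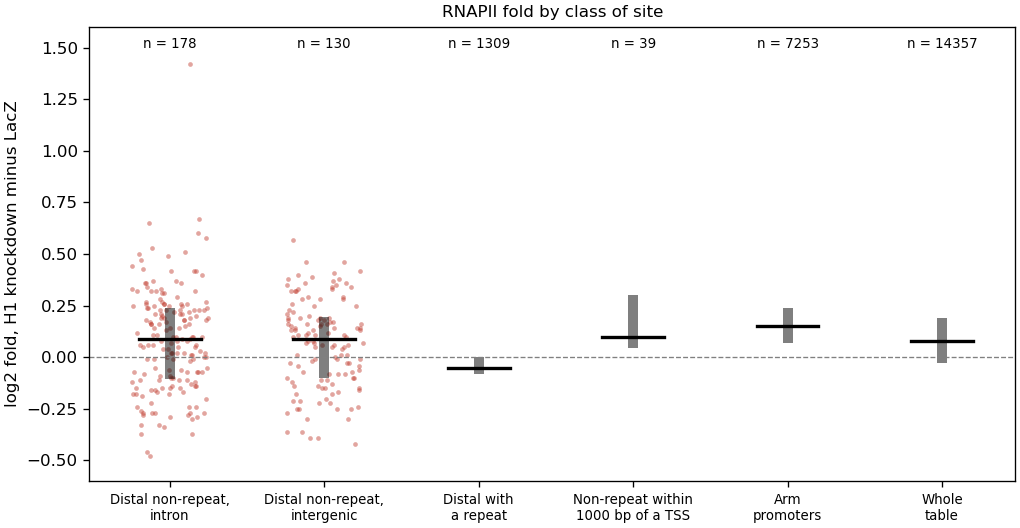
Log2 fold (H1 knockdown minus LacZ, vertical axis) by class of site. Points are entries of the distal non-repeat sites, black lines are medians and grey bars run between the quartiles. The distal intron and intergenic points spread from −0.48 to 1.42, and the promoter quartile bar lies wholly above 0.

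The sites were also narrower and carried less RNAPII per length than promoters. The median width of a locus was 464 bp, against 548 bp at promoter loci and 671.5 bp at distal loci with a repeat. The log2 of the authors' mean concentration per kb of width had a median of 8.82 at the distal loci. It was 9.31 at promoters, 9.06 at distal repeats and 9.15 over all loci. The authors' peak lists also give a fold enrichment over input for each peak. It was at least 10 for 12 distal entries of the knockdown list (7.69%) and 8 of the LacZ list (5.26%), against 27.5% and 25.5% of arm promoter entries of the same lists. Most of these sites were therefore weak peaks, with a few strong ones described below.

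The distance criterion set a sharp edge in a continuous range. Just inside it lay entries at mrj (1027 bp, log2 fold 0.50 in the authors' deposited table), at lncRNA:CR43974 (1030 and 1045 bp, 0.32 each) and at CG18659 (1041 bp, 0.32). Just outside lay entries at Pabp2 (923 and 901 bp, folds of 0.13 and 0.09 in the authors' deposited table), at lncRNA:CR44206 (765 bp, 0.07) and at Stlk (750 bp, 0.29).

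Whether a site was a peak in 1 list or in both went with its fold. Of the 213 loci, 55 held a peak of the knockdown list only, 48 of the LacZ list only and 110 of both. The knockdown-only loci had a median log2 fold of 0.26 in the authors' deposited table, with 49 above 0 and 7 called higher. The LacZ-only loci had a median of −0.25 in the authors' deposited table, with 0 above 0 (range −0.48 to −0.06) and 2 called lower. Peaks and folds come from the same libraries, so the direction at the loci of a single list follows in part from how the lists were made. The 110 loci with peaks of both lists had a median of 0.105 (75 above 0) and held 6 of the loci called higher in the authors' deposited table. The share called higher was 12.7% of knockdown-only loci and 5.45% of loci of both lists, against 5.09% of all loci. Of the LacZ-only loci 4.17% were called lower, against 0.101% of all loci. The same limit holds for the shares of single-list loci, since all loci together mix the lists.

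**Figure D2:**
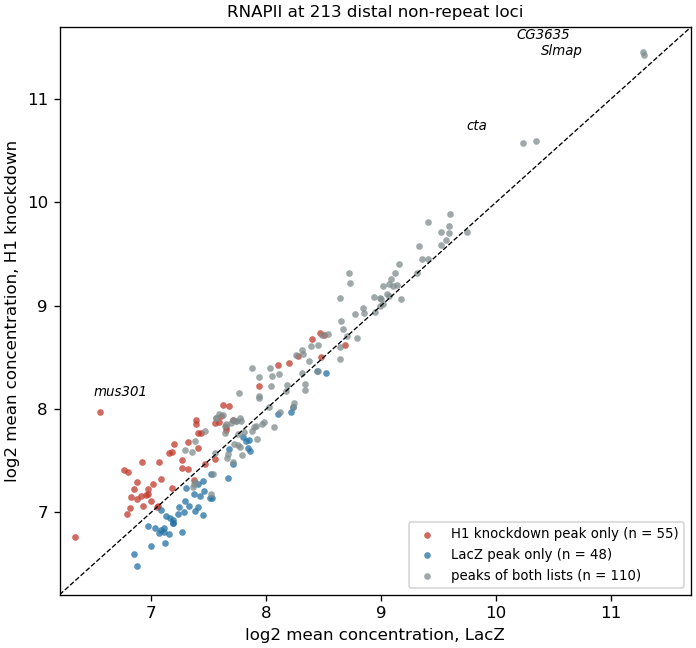
Log2 mean concentration of H1 knockdown (vertical axis) against that of LacZ (horizontal axis) at the 213 loci, colored by the list that held the peak, with the line of equal values dashed. The mus301 point lies farthest above the line, at 7.97 in H1 knockdown against 6.55 in LacZ, and CG3635 and Slmap stand at the upper end.

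The intron sites called higher lay mostly in first introns. In the first intron of Stlk, which encodes a Ste20-like kinase (2R:438497-439820), the authors' deposited table gave a log2 concentration of 9.22 in H1 knockdown and 8.73 in LacZ, a fold of 0.49 with p = 0.00431. The narrower entry of the LacZ list at this place gave 8.33 in H1 knockdown and 7.80 in LacZ, with p = 0.00577 in the authors' deposited table. Stlk had the smallest p of the 213 loci, and its site lay within 1 Mb of the centromeric end of 2R.

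The fifth intron of CG32085, nearest to the TSS of CG7339 (3L:11644454-11644996), had 8.40 in H1 knockdown and 7.88 in LacZ in the authors' deposited table (p = 0.00743). The first intron of pyd, the fly ZO-1 protein of cell junctions (3R:4755488-4755763), had 7.39 in H1 knockdown and 6.80 in LacZ in the authors' deposited table (p = 0.0137). The first intron of mrj, a DnaJ cochaperone (2R:12098711-12099147), had 7.89 in H1 knockdown and 7.39 in LacZ in the authors' deposited table (p = 0.0143). Each of these differences was close to 0.5 log2 units.

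The first intron of kdn, the citrate synthase gene (X:6249462-6250022), had 8.04 in H1 knockdown and 7.62 in LacZ in the authors' deposited table (p = 0.0267). On the same chromosome the first intron of CG12535, nearest to CG14269 (X:3325991-3326386), had 7.57 in H1 knockdown and 7.15 in LacZ in the authors' deposited table (p = 0.0453). The first intron of CG40006, nearest to lncRNA:CR43927 (2L:22629103-22630405), had 9.32 in H1 knockdown and 8.72 in LacZ in the authors' deposited table, a fold of 0.60 with p = 0.0483. Stlk and CG40006 were the pericentric members of this set of 7 intron loci, and a repeat-annotated entry lay 0.983 kb from the CG40006 site.

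The intergenic sites called higher numbered 6 loci. Upstream of Tollo, a receptor of the Toll family (3L:15227111-15227468), RNAPII was 7.49 in H1 knockdown and 6.92 in LacZ in the authors' deposited table, a fold of 0.57 with p = 0.00935. Near the tip of 3L, a site upstream of CG12483 (3L:101384-103264) had 9.81 in H1 knockdown and 9.41 in LacZ in the authors' deposited table (p = 0.0195). A site downstream of the CG43149 TSS on the same arm (3L:41869-42386) had 7.85 in H1 knockdown and 7.39 in LacZ in the authors' deposited table (p = 0.0269). These are 3 of the 5 loci on 3L called higher, the most of any arm (13.9% of its loci, against 5.09% of all loci).

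A wide site 14149 bp downstream of the TSS of cta, a G protein alpha subunit gene (2L:22887138-22890257), had 10.58 in H1 knockdown and 10.24 in LacZ in the authors' deposited table, a fold of 0.35 with p = 0.0241. It was the site of highest concentration among the 13 loci called higher. At CG32213 (3L:19471485-19472010) the authors' deposited table gave 8.31 in H1 knockdown and 7.94 in LacZ (p = 0.0371). The site at CG40439 (2L:22682533-22682948) had 7.66 in H1 knockdown and 7.20 in LacZ in the authors' deposited table (p = 0.0385).

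Both sites called lower were intron peaks of the LacZ list only, 468 and 274 bp wide. The second intron of CG32365 (3L:7867719-7868186) had 6.97 in H1 knockdown and 7.45 in LacZ in the authors' deposited table, a fold of −0.48 with p = 0.0299. An intron of a transcript with no gene name in the files (2R:3656308-3656581) had 6.81 in H1 knockdown and 7.27 in LacZ in the authors' deposited table, a fold of −0.46 with p = 0.0419. Their fold enrichments over input were 1.46 and 1.45, near the median of 1.51 of the LacZ-only distal loci. The median was 1.76 over LacZ-list distal entries and 3.03 over the table's LacZ-list peaks.

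The highest positive fold of the whole table lay among these sites and was not called. In the fourth intron of mus301, a helicase gene of DNA repair (3L:8133191-8133619), the authors' deposited table gave 7.97 in H1 knockdown and 6.55 in LacZ, a fold of 1.42 with p = 0.0765. It was the 1 distal entry with a fold of at least 1, and it held a knockdown-list peak with a fold enrichment of 4.12 over input and no LacZ peak. An intron site nearest to CG44774 (X:4828208-4828497) had the next largest fold of the 213 loci, with 7.41 in H1 knockdown and 6.76 in LacZ in the authors' deposited table (0.65, p = 0.0806). The files used give no values per library that would show the spread behind these p-values.

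Among the lowest folds that were not called were 3 intergenic sites of the LacZ list only. In the authors' deposited table the folds were −0.42 near lncRNA:CR43353 (6.70 in H1 knockdown and 7.12 in LacZ, p = 0.0821) and −0.39 upstream of stw, a laccase gene of the cuticle (6.48 in H1 knockdown and 6.87 in LacZ, p = 0.145). The site 6000 bp upstream of sxc, the O-GlcNAc transferase gene (2R:1188599-1188987), had 7.14 in H1 knockdown and 7.53 in LacZ in the authors' deposited table (fold −0.39, p = 0.0568). The promoter of sxc went the other way, with 7.93 in H1 knockdown and 7.47 in LacZ in the authors' deposited table, a fold of 0.46 called higher at p = 0.0219.

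The fold of the distal loci was lower farther from a TSS. The 39 loci at 1 to 2 kb had a median of 0.21 in the authors' deposited table, with 30 above 0 and 3 called higher. The 66 loci at 2 to 5 kb had a median of 0.14, with 44 above 0 and 6 called higher in the authors' deposited table. At 5 to 10 kb the 44 loci had a median of 0.035 in the authors' deposited table, with 24 above 0, 1 called higher and 1 called lower. Over 10 kb the 64 loci had a median of −0.045 in the authors' deposited table, with 26 above 0, 3 called higher and 1 called lower. The share called higher was 7.69%, 9.09%, 2.27% and 4.69% of the loci from the nearest band to the farthest, against 5.09% of all loci, and with counts this small no order was read from it. By their medians, farther sites were closer in direction to the repeat-annotated distal sites than nearer ones were. The median below 0 was that of all loci over 10 kb, and the 37 of them with peaks of both lists had a median of 0.05.

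The make-up of the bands differed in the same order. Loci of the knockdown list only, the LacZ list only and both lists numbered 13, 6 and 20 at 1 to 2 kb, against 9, 18 and 37 over 10 kb. Within the loci of both lists the medians of the 4 bands in the authors' deposited table were 0.20, 0.13, 0.125 and 0.05 from near to far. Over all 213 loci Spearman's rho between fold and distance was −0.30 as a description, since the loci share the same libraries. The 115 loci outside windows of 2 Mb at the centromeric arm ends gave −0.38, again as a description. Their band medians in the authors' deposited table were 0.225, 0.18, 0.135 and −0.02.

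**Figure D3:**
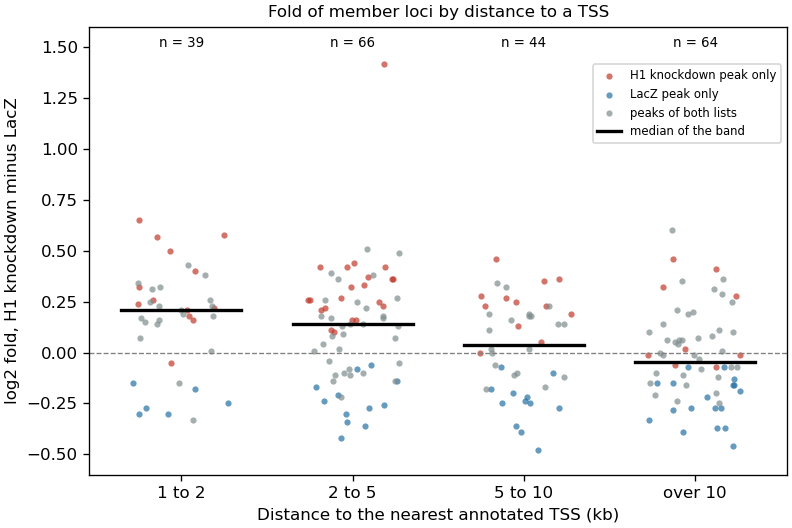
Log2 fold (H1 knockdown minus LacZ) of the 213 loci in 4 bands of distance to the nearest annotated TSS (kb), colored by the list that held the peak, with the median of each band as a black line. The medians step down from 0.21 in the nearest band to −0.045 in the farthest, and LacZ-only loci lie below 0 in each band.

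Position within the gene went with the fold as well. The 45 loci in first introns had a median of 0.21 in the authors' deposited table, with 33 above 0 and 6 called higher. The 79 loci in later introns had a median of 0.01, with 40 above 0, 1 called higher and 2 called lower in the authors' deposited table. The share called higher was 13.3% in first introns and 1.27% in later introns, against 5.09% of all loci. List make-up differed too, with 19 knockdown-only and 8 LacZ-only loci of 45 in first introns, and 21 and 18 of 79 in later introns. Within loci of both lists, 2 of 18 first-intron loci (11.1%) and 1 of 40 later-intron loci (2.50%) were called higher in the authors' deposited table. Calls of lower RNAPII made 2.53% of later-intron loci, against 0.101% of all loci, and all these counts are small. First-intron loci lay nearer to a TSS, at a median of 2879 bp against 6611 bp in later introns, so position and distance cannot be told apart here. Within loci of both lists the medians in the authors' deposited table were 0.18 (18 first-intron loci) and 0.045 (40 later-intron loci), and outside the 2 Mb windows they were 0.22 and 0.095 (36 and 48 loci).

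A host gene was known for 122 of the 124 intron loci, 89 genes in all, and the nearest TSS belonged to another gene at 30 of them. Few hosts carried many sites. The gene nolo, which encodes an ADAMTS-like protein, held 8 loci, whose folds in the authors' deposited table ran from −0.11 to 0.36. Ir41a, an ionotropic receptor gene, held 7, from −0.20 to 0.06 in the authors' deposited table, and osp held 4, from −0.37 to −0.01. None of the loci within these hosts was called in the authors' deposited table.

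Distal sites were compared with the promoter of the same gene, the host for an intron site and the nearest gene otherwise. A promoter entry existed for 99 loci of 70 genes. At these loci the distal site had a median fold of 0.15 in the authors' deposited table (69 above 0), and the promoter 0.09 (91 above 0). The signs matched at 64 of 99 loci. Per length, the distal site exceeded its promoter at 11 loci, with a median log2 difference of −0.51. Across the 99 pairs Pearson's r between the folds was −0.32 and Spearman's rho −0.29, and with 1 site for each of the 70 genes −0.18 and −0.17, as descriptions of sites that share libraries. The 114 loci with no promoter entry had a median fold of 0 in the authors' deposited table, with 55 above 0.

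Of the 15 loci called in either direction, 4 had a promoter entry of the same gene, and none of these promoters was called. The Tollo promoter had 9.23 in H1 knockdown and 9.18 in LacZ in the authors' deposited table, a fold of 0.05 beside 0.57 at the distal site. The pyd promoter had 9.41 in H1 knockdown and 9.37 in LacZ (0.04 beside 0.58 in the authors' deposited table). Values for mrj were 8.24 in H1 knockdown and 8.10 in LacZ (0.14 beside 0.50), and for kdn 8.84 in H1 knockdown and 8.76 in LacZ (0.08 beside 0.42), again from the authors' deposited table. In all 4 genes the promoter held more RNAPII than the distal site in both conditions, and the difference between site and promoter was not tested.

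The sites were unevenly placed along the arms. Of the 213 loci, 92 lay on 2L, 41 on 2R, 36 on 3L, 18 on 3R and 26 on X. Windows of 1 Mb at the centromeric ends held 40 loci (18.8%), against 1.90% of arm promoter loci and 27.3% of distal loci with a repeat. Of the 30 non-repeat intron and intergenic loci within 1000 bp of a TSS, 5 (16.7%) lay there too. Windows of 2 Mb held 98 (46.0%), against 6.26% of promoter loci, and 66 of the 98 lay on 2L. The end of an arm was set at its outermost site or peak. On 2L no distal non-repeat site lay before position 8421837, a stretch in which the table had 669 entries, 83 of them intronic or intergenic and 82 of those with a repeat. That stretch was not examined further.

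**Figure D4:**
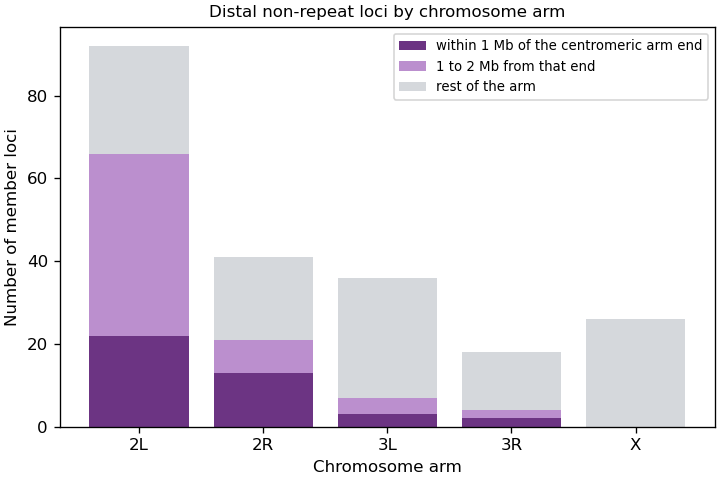
Number of distal non-repeat loci on each chromosome arm, stacked by distance from the centromeric arm end (up to 1 Mb, 1 to 2 Mb, and the rest). On 2L, 66 of 92 loci fall within 2 Mb, against 0 of 26 on X.

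The fold differed with the 2 Mb windows, which were chosen after seeing the data, but hardly with the 1 Mb windows. Loci in the 1 Mb windows had a median of 0.085 in the authors' deposited table, with 22 of 40 above 0 and 4 called higher (10.0%). The remaining 173 loci had a median of 0.08, with 102 above 0, 9 called higher (5.20%) and 2 called lower (1.16%) in the authors' deposited table. Loci in the 2 Mb windows had a median of −0.045 in the authors' deposited table, with 44 of 98 above 0 and 4 called higher. Loci outside had a median of 0.16 in the authors' deposited table, with 80 of 115 above 0, 9 called higher and 2 called lower. The share called higher was 4.08% inside and 7.83% outside, near the 5.09% of all loci, and no difference was read from it. Outside, 1.74% were called lower, against 0.101% of all loci. By arm, the medians in the authors' deposited table were −0.005 on 2L, 0.10 on 2R, 0.20 on 3L, 0.115 on 3R and 0.19 on X. On 2L the median was −0.025 at the 66 loci inside the 2 Mb windows and 0.035 at the 26 outside. Sites over 10 kb from a TSS were 38 of the 98 loci inside and 26 of the 115 outside. Arm, window and distance thus overlapped, and which of them the fold goes with was not tested. A repeat-annotated entry lay within 2 kb of 42 distal loci (19.7%), against 0.801% of arm promoter loci. For non-repeat intron and intergenic loci within 1000 bp of a TSS it was 4 of 30 (13.3%). A repeat-annotated entry overlapped 16 distal loci. Without the entries that overlap one, the median fold over entries was 0.095 and 18 entries were called higher in the authors' deposited table.

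The sites of highest concentration were wide and mostly pericentric. In the first intron of CG3635 (2L:22178851-22183747) the authors' deposited table gave 11.46 in H1 knockdown and 11.28 in LacZ, and this site overlapped a repeat-annotated entry. Upstream of Slmap, a component of the STRIPAK phosphatase complex (2L:22465087-22469954), it was 11.43 in H1 knockdown and 11.29 in LacZ in the authors' deposited table. The site upstream of lncRNA:CR45174 (3L:23688083-23690709) had 10.60 in H1 knockdown and 10.35 in LacZ in the authors' deposited table (p = 0.0908) and overlapped a repeat-annotated entry too. These concentrations count reads over the whole width, which was 4897, 4868 and 2627 bp.

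The next in order of concentration after cta were intergenic sites near CG9932 and Marf1, an intron of nompB, and a site near IntS3. Near CG9932 the authors' deposited table gave 9.89 in H1 knockdown and 9.60 in LacZ (p = 0.257). In the fourth intron of nompB, a gene of intraflagellar transport, it gave 9.71 in H1 knockdown and 9.75 in LacZ in the authors' deposited table (p = 0.744). The site 25961 bp upstream of Marf1 had 9.77 in H1 knockdown and 9.59 in LacZ in the authors' deposited table (p = 0.255) and overlapped a repeat-annotated entry, and the one upstream of IntS3, an Integrator subunit gene, 9.70 in H1 knockdown and 9.59 in LacZ (p = 0.479). Of the 8 loci of highest concentration, cta alone was called.

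A few distal sites had peaks as strong as those of promoters. The second intron of Kdm2, a histone lysine demethylase gene, held a pair. The stronger (3R:4882492-4883271) had a fold enrichment over input of 39.6 in the knockdown list and 34.2 in the LacZ list, above 97.3% and 97.4% of arm promoter peaks of those lists. Its concentration in the authors' deposited table was 9.45 in H1 knockdown and 9.36 in LacZ. The other (3R:4879712-4880443) had enrichments of 31.6 and 29.0, and 9.32 in H1 knockdown and 9.31 in LacZ in the authors' deposited table. Both sites differed little between the conditions, with folds of 0.09 and 0.01 in the authors' deposited table.

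An intron of Ptp61F, a tyrosine phosphatase gene, held a peak nearest to ru, a rhomboid protease gene (3L:1366637-1367299). Its enrichment was 22.0 in the knockdown list and 16.8 in the LacZ list, and its concentration in the authors' deposited table was 9.07 in H1 knockdown and 8.99 in LacZ. A site within tara, a trithorax-related cell cycle regulator (3R:12058461-12059261), had 15.9 in the knockdown list and 14.9 in the LacZ list, with 9.21 in H1 knockdown and 9.07 in LacZ in the authors' deposited table. Slmap and lncRNA:CR45174 also ranked among the 5 strongest of the knockdown list, at 30.2 and 28.5.

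In 1 place peak strength and concentration went apart. A LacZ-only peak in an intron of lncRNA:CR44999, nearest to CG12535 (X:3347241-3347518), had an enrichment of 23.6, above 92.1% of arm promoter peaks of its list. Its concentration in the authors' deposited table was 6.59 in H1 knockdown and 6.85 in LacZ (fold −0.26, p = 0.298). The enrichment and the concentration come from separate steps of the authors' processing, and which of them describes this site was not tested.

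Many sites came in groups. With gaps of up to 5 kb between neighbors, 34 of the 213 loci fell into 8 clusters of 3 or more, 23 pairs were found, and 133 loci stood alone. The most regular cluster, chosen after its positions were seen, lay between CG1561 and rho-4, a rhomboid protease gene (X:11481159-11492038). It held 6 intergenic sites, each a peak in both lists, with centers 2078 to 2106.5 bp apart in the knockdown list and 2081 to 2101 bp apart in the LacZ list. Their widths in the knockdown list were 395 to 428 bp, and their fold enrichments over input 4.15 to 4.63.

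The 6 sites also had similar levels. Along the chromosome, the authors' deposited table gave 7.77, 7.94, 7.86, 7.85, 7.89 and 7.91 in H1 knockdown, and 7.64, 7.62, 7.69, 7.65, 7.71 and 7.77 in LacZ. H1 knockdown was higher at each of them, with folds of 0.13 to 0.32 in the authors' deposited table, and none was called (p from 0.112 to 0.501). The rho-4 promoter had 8.78 in H1 knockdown and 8.66 in LacZ in the authors' deposited table. No repeat was annotated at these sites, and whether they are copies of 1 sequence that share reads was not tested. Without them the median fold over entries was 0.075 in the authors' deposited table, against 0.09 with them.

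**Figure D5:**
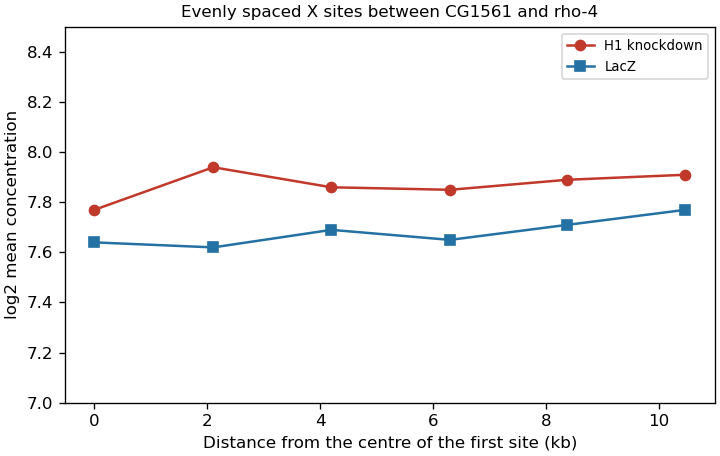
Log2 mean concentration of H1 knockdown (circles) and LacZ (squares) at the 6 evenly spaced X sites between CG1561 and rho-4, against distance from the center of the first site (kb). H1 knockdown lies at 7.77 to 7.94, above LacZ at 7.62 to 7.77, and the points are evenly spaced. The vertical axis does not start at 0.

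In 5 of the other 7 clusters no more than 1 locus had a fold above 0. On 2L, 5 loci near CG2201 had folds of −0.18 to 0.01 in the authors' deposited table, and 5 near lncRNA:CR45703 and lncRNA:CR45704 had −0.25 to 0.01. On 2R, 5 loci within Ir41a had −0.15 to 0.06 in the authors' deposited table, and 3 on 2L near snoRNA:Psi28S-2996 had −0.25 to −0.01. At the edge of the histone gene array on 2L, 3 loci near His2A:CG33832 and Lamp1 had 0.06 to 0.32 in the authors' deposited table, and 3 near CG12483 on 3L −0.10 to 0.39. Within nolo, 4 neighboring loci had −0.07 to 0.36 in the authors' deposited table. Of the 3 loci near His2A:CG33832 and Lamp1, those at 2L:21553170-21554305 and 2L:21557623-21559056 overlapped a repeat-annotated entry. Histone genes are near-identical copies, and whether reads are shared with the cluster next to them was not tested.

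None of the 3 sites farthest from a TSS was called. A site 102537 bp from lncRNA:CR46075 (2R:2286524-2286956) had 7.78 in H1 knockdown and 7.81 in LacZ in the authors' deposited table (p = 0.864). Another, 81708 bp from the same gene, had 8.46 in H1 knockdown and 8.37 in LacZ in the authors' deposited table (p = 0.58). In the sixth intron of CG40006, 74600 bp from the TSS of lncRNA:CR43927, it was 7.55 in H1 knockdown and 7.79 in LacZ in the authors' deposited table (p = 0.191). The median distance of the 213 loci was 5178 bp (quartiles 2667 and 11360), and 137 lay downstream of the nearest TSS.

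Few genes of the listed programs had a distal locus, and distal loci were 213 of the 7911 loci of the table. Lists this short would hold few in any case, and no test of them was made. None of the 15 hemocyte genes, of 21 cytoskeleton and adhesion genes or of 26 genes listed under chromatin had a distal locus. Some entry in the table was found for 10, 19 and 23 of them. Of 16 ecdysone response genes, 14 had an entry and 1 a distal locus, an intron of the ecdysone receptor gene EcR nearest to CG14589. It had 7.50 in H1 knockdown and 7.27 in LacZ in the authors' deposited table (p = 0.253). The EcR promoter had 9.32 in H1 knockdown and 9.29 in LacZ there.

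Of 26 names in the signalling list, which also held transcription factor genes, 17 had an entry and 1 a distal locus. This was fru, a transcription factor gene of sexual behavior in flies, with 7.18 in H1 knockdown and 7.52 in LacZ in its first intron in the authors' deposited table (p = 0.141). Of 39 developmental transcription factors, 13 had an entry and 1 a distal locus, luna, a factor of the KLF family, with 9.09 in H1 knockdown and 9.07 in LacZ in the authors' deposited table (p = 0.878). A site upstream of Mhc, the muscle myosin heavy chain gene, had 6.79 in H1 knockdown and 7.15 in LacZ in the authors' deposited table (p = 0.13). Small RNA genes were nearest to 5 loci, with a median fold of −0.15 in the authors' deposited table and 0 called. No ovarian, germline or neuronal marker had a distal locus, and no list held one that was called.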

How the data were processed

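RNAPII ChIP-seq and input libraries of H1 knockdown and LacZ S2 cells were used as the authors processed them. The submitters' processing notes name Bowtie2 2.2.2, the build dm3, DiffBind 2.10.0, DESeq2 and MACS 1.4.2, whereas MACS2 stands in the peak and column names. The caller's version is thus unsettled. The scaling of libraries is not stated in the labels or headers. Homer annotated the sites, per the file headers. The deposited table gives log2 concentrations per condition, their log2 fold, and the authors' p-value and FDR. The fold equals the difference of concentrations to within 0.01. Per the file headers, the peak lists, called on libraries pooled per condition, hold a fold enrichment ratio, −log10 p and q, and a score. A pileup signal stands in the deposited table. The deposited −log10 q served as a filter in an alternative. The −log10 p, score and pileup were not used.

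Loci, medians, counts and correlations were computed with Python 3.11.15, numpy 2.4.6, scipy 1.17.1 and pandas 2.3.3, and figures with matplotlib 3.10.9. Merging was tested on simulated intervals. The planned results were counts of the authors' calls, medians and shares. A Release 6 RefSeq gene table paired gene names only, and no site sequence was used here. Sites named were those with an unadjusted p under 0.05, the 5 largest and 5 smallest folds, the 8 highest concentrations, the 3 farthest from a TSS, the 5 strongest peaks of each list and up to 3 members of each gene list. Further sites named with hosts, clusters, promoters and the distance threshold were chosen after their values were seen. Sites and gene lists were chosen with earlier results of these data known.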

Additional observations from a re-analysis of the deposited data

How the results depend on the processing

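Results were recomputed over other choices of site and threshold. Windows of 2 Mb, the X sites and overlaps with repeats were chosen after seeing the data. Recomputed values stayed close to the reported one in 53 cases and moved in 31. Of the 18 entries called higher, 0 passed an FDR of 0.05 or 0.1. Entries over 5000 bp from a TSS gave 6 calls among 153 entries. Outside the 1 Mb and the 2 Mb windows there were 11 each, among 246 and 163 entries. The LacZ list alone gave 5 among 152. These sets are smaller than the main set of 308, so lower counts do not by themselves mean lower shares. The count of 2 entries called lower became 0 at both FDR thresholds, without low concentrations, in the knockdown list alone, and for peaks with a −log10 q of at least 5. The median fold of 0.09 became 0.02 over 5000 bp, 0.175 in the knockdown list, −0.045 in the LacZ list, 0.155 at a −log10 q of at least 5 and 0.16 outside the 2 Mb windows. For these settings in the same order, the share above 0 was 52.9%, 78.2%, 45.4%, 77.3% and 72.4%, and without low concentrations it was 76.1%. The intron median became 0.01, 0.18, −0.06, 0.17 and 0.16 in that order. The intergenic median became 0.16 in the knockdown list, −0.035 in the LacZ list, 0.14 at the −log10 q threshold and 0.15 outside the 2 Mb windows. The list alternatives select on the same libraries as the fold, and the cause of the other moves was not tested. The 110 loci of both lists became 106 and 89 under a stricter overlap and peak threshold.

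No paired analysis was possible because the files hold no values per library, and leaving out a replicate was not run for the same reason. The sign of a fold near 0 depends on a scaling that is not given.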

Other observations

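Folds of like size had very different p-values at these sites, chosen after their values were seen. A log2 fold of at least 0.35 in the authors' deposited table was found at 28 of the 213 loci, of which 13 were called. Their p-values in the authors' deposited table ran from 0.00431 at Stlk to 0.313 at lncRNA:CR44786, and 7 were above 0.1. Tlk, a kinase gene with a first-intron site on X, had 7.95 in H1 knockdown and 7.59 in LacZ in the authors' deposited table, with p = 0.277. In all, 35 loci had an unadjusted p under 0.1 there.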
